A study of Mus musculus with 7 samples.

Results

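The clustered protocadherin genes were read in DNase-seq data of cultured mouse podocytes. They were defined as the protein-coding genes of GENCODE vM21 on chromosome 18 (mm10) whose symbols begin with *Pcdha*, *Pcdhb*, *Pcdhga*, *Pcdhgb* or *Pcdhgc* and a number or C-type name, which gave 57 of 21853 protein-coding genes. Of these, 14 belonged to the alpha cluster, 22 to the beta cluster and 21 to the gamma cluster. Each gene was represented by the transcription start site (TSS) of its variable exon and the 500 nt on either side of it, called its promoter here.

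DNase-seq counts fragments that DNaseI releases from nuclei, and such fragments are denser where chromatin is open. A conditionally immortalised mouse podocyte line, differentiated at 37 °C and growth-arrested in reduced serum, was cultured over 36 h at 5 mM glucose (NG) or at 25 mM glucose. The high-glucose cells had received 50 nM of either a mimic without target (non-targeting, HG+NT) or a mimic of miR-93 (HG+miR-93). Each condition had 2 replicate libraries, compared with 1 genomic DNA input library, and the authors pooled the replicates into 1 peak list per condition, so no replicate error could be computed and no test between conditions was made. The labels name no mimic for NG, so glucose and transfection cannot be told apart between NG and HG+NT.

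Clustered protocadherins are cadherin-repeat adhesion proteins that bind their own kind across cell contacts, and neurons use combinations of them to tell their own branches from those of other cells. In the alpha and gamma clusters each variable exon has a promoter of its own and encodes the extracellular and transmembrane parts, and it is spliced to constant exons shared by the cluster, whereas beta genes have no constant exons. In neurons a promoter is chosen through CTCF and cohesin, which bring a distant enhancer to it, and DNA methylation keeps many of the other promoters silent. The C-type genes, *Pcdhac1* and *Pcdhac2* at the end of the alpha cluster and *Pcdhgc3*, *Pcdhgc4* and *Pcdhgc5* at the end of the gamma cluster, are regulated apart from the rest.

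The lists held between 846027 and 1036304 peaks and covered 93.74% to 95.39% of the chromosomes, so a peak lay over nearly every promoter and its presence carried no information. Values were therefore read from the height of each peak. The pileup is the number of fragments over a peak's summit at the sequencing depth of the input library, the fold is the pileup plus 1 over the input's local mean plus 1, and the fragment number gave each pileup an exact Poisson interval (95%), which reflects counting error and nothing else. Depth relative to the input was 2.239 under NG, 3.851 under HG+NT and 5.146 under HG+miR-93. All 57 promoters had a peak in every list, as did 54260 of 54327 protein-coding TSSs.

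The promoters of the clustered protocadherins were poor in G and C. Over the 300 bases from 250 upstream to 50 downstream of the TSS, their median GC content was 39.9%, against 56.1% over all protein-coding TSSs, and it was 38.5% in the alpha cluster, 39.5% in the beta cluster and 42.2% in the gamma cluster. The C-type promoters had a median of 54.5%, and that of *Pcdhgc3* had the highest GC content of all 57, at 62.79%. The ratio of observed to expected CpG dinucleotides was 0.52 at the median, near the 0.53 of all TSSs, and 0.65 in the alpha cluster. The letters CGCT, the core of the conserved element found upstream of many of these genes, occurred on either strand in 55 of 57 promoters (96.5%) and in 69.1% of all promoters of the same length. *Pcdhb22* and *Pcdhga12* were the members without them. Their TSSs, at 37517871 and 37765580, lie further upstream of the coding start (37518481 and 37766117) than those of the other members. The 300 bases may therefore cover another stretch there, and these genes are not shown to lack the element. The letters TATAAA occurred on either strand in 10 of 57 promoters (17.5%) and in 11.3% of all promoters. These short matches are descriptions of the sequence and do not mark binding sites.

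At the level of DNase fragments the promoters were low in every condition. Median pileup over the 57 promoters was 3.57 under NG, 3.90 under HG+NT and 3.69 under HG+miR-93, against 5.36, 4.67 and 4.66 over all TSSs. Ranked by pileup among all TSSs, the median member stood at percentile 26.2, 33.4 and 28.5 in the same order. Only 5, 4 and 5 members lay above the middle of the ranking in the same order, and 0 lay above percentile 90 in any list. The input's local mean was at its genome-wide background for 52.6% of the promoters under NG, 56.1% under HG+NT and 57.9% under HG+miR-93, but for 22.4%, 21.2% and 21.1% of all TSSs. No peak taken for a member had a −log10 q above 0. Over all TSSs the shares were 1.81%, 2.20% and 0.11% in the 3 lists, so few such peaks could occur among 57 promoters.

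*Pcdhgc3*, a C-type gene of the gamma cluster whose product is known to bind Axin1, had the highest promoter pileup of the 57 genes in all 3 lists. Its TSS lies at position 37806410 of chromosome 18. Its pileup was 8.93 under NG (95% Poisson interval 5.46 to 13.8, 20 fragments), 7.27 under HG+NT (4.83 to 10.51, 28 fragments) and 6.41 under HG+miR-93 (4.41 to 9.01, 33 fragments). The intervals of the 3 lists overlapped. Its summits lay 116 nt upstream, 202 nt downstream and 40 nt downstream of the TSS, so the peak stood over the promoter itself in every list. By pileup it ranked at percentile 75.7, 76.2 and 73.6, while the next gene by mean pileup percentile, *Pcdhgb7*, ranked at 46.7, 43.6 and 44.4. The input was also high there, with a local mean of 7, 3 and 5 against a background of 1.43, and its fold was 1.24 under NG, 2.07 under HG+NT and 1.24 under HG+miR-93. At the other end, *Pcdha5* had pileups of 2.23, 2.34 and 2.72, the lowest mean pileup percentile of the 57 genes.

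**Figure D1:**
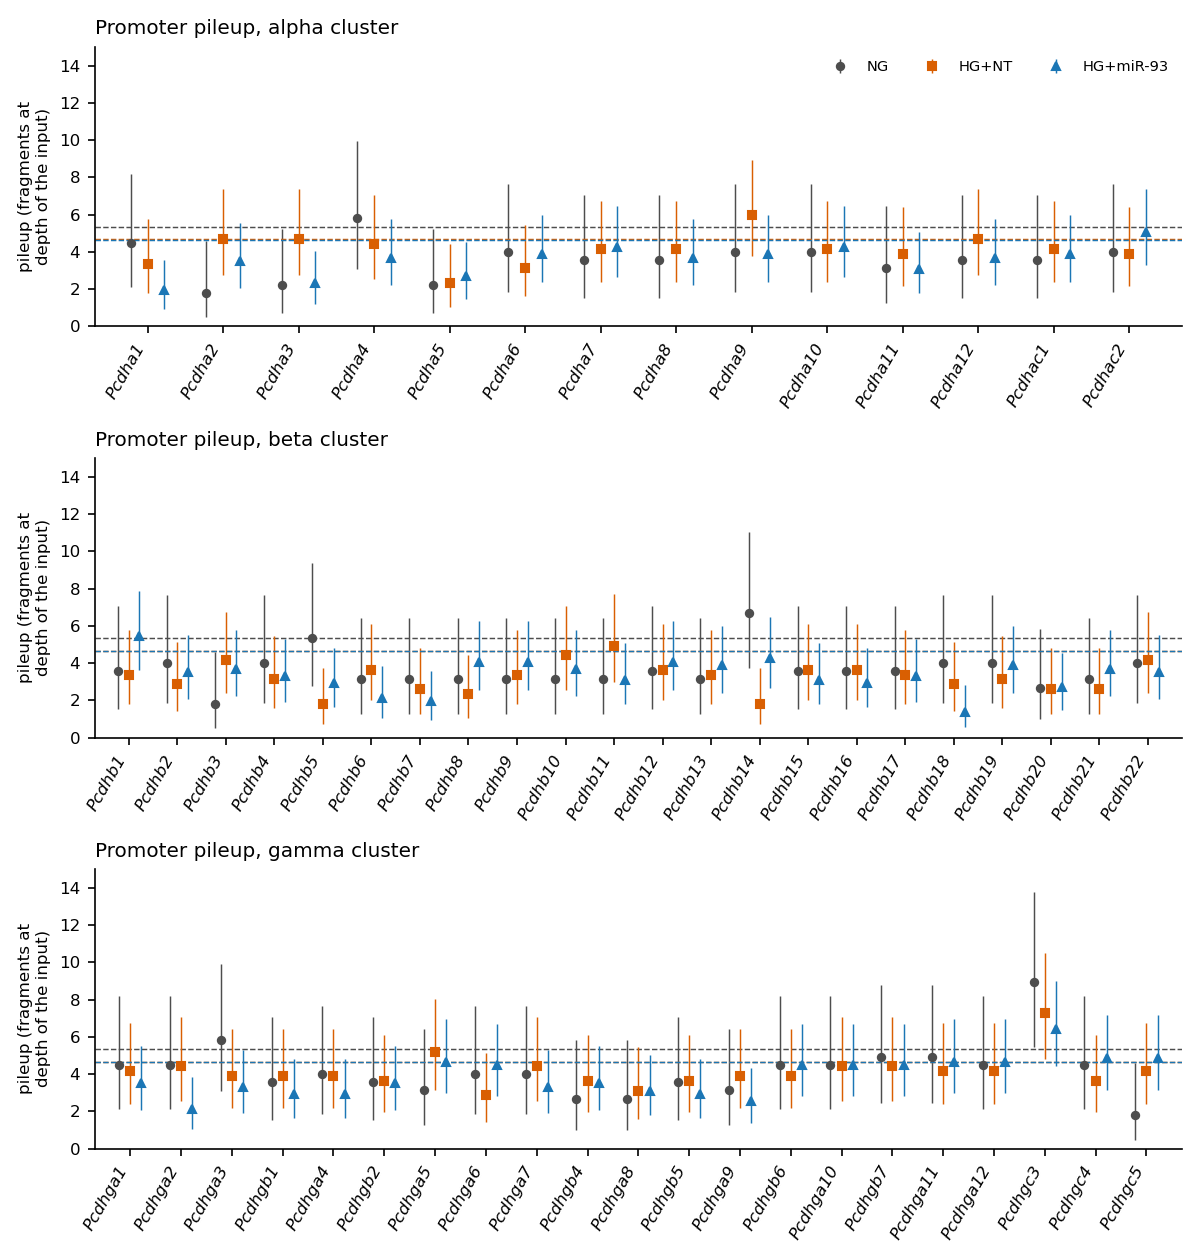
Promoter pileup of each clustered protocadherin gene (fragments at the depth of the input, linear axis) by cluster in chromosomal order, with points for NG, HG+NT and HG+miR-93, bars for exact 95% Poisson intervals and dashed lines for the median over all protein-coding TSSs of each list. Most points lie under the dashed lines, and *Pcdhgc3* has the highest pileup in every list, from 6.41 to 8.93.

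Low pileups went together with low GC content over all TSSs. Among the 5116 TSSs with a GC content under 40%, median pileup was 3.13 under NG, 2.60 under HG+NT and 2.33 under HG+miR-93, and it rose to 8.04, 6.75 and 6.22 among the 20393 TSSs with 60% or more. The 30 members under 40% had medians of 3.57, 3.77 and 3.5, above those of all TSSs in that class. The 23 members between 40% and 50% had medians of 3.57, 3.64 and 3.5, next to 3.57, 3.38 and 3.5 for the 11784 TSSs in that class. *Pcdhgc3* and *Pcdhac1* were the members with 60% or more. *Pcdhac1* had pileups of 3.57, 4.15 and 3.89, under the median of that class in all 3 lists.

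The fold over input, which the lists report, placed the promoters near the middle of all TSSs. The median percentile by fold was 42.7 under NG (95% interval of the median 37 to 51.4), 53.9 under HG+NT (42.2 to 66.4) and 55.6 under HG+miR-93 (47.1 to 66.9). Such intervals of a median take genes as units and hold no error between replicates. Percentiles of single members spread from 1.6 to 91.0 under NG, from 5.2 to 95.7 under HG+NT and from 2.3 to 95.8 under HG+miR-93. A fold of at least 2 was reached by 11, 20 and 9 members (19.3%, 35.1% and 15.8%), against 36.9%, 29% and 24.7% of all TSSs. Folds of members ran from 0.91 to 2.80 under NG, from 0.94 to 2.87 under HG+NT and from 0.78 to 2.65 under HG+miR-93, and the highest −log10 p of a member was 2.45 in each list.

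By cluster, the alpha genes kept the narrowest range of medians, with percentiles of 49.9 under NG, 52.7 under HG+NT and 53.7 under HG+miR-93. The beta genes stood at 42.7, 46.9 and 58.2. The gamma genes stood at 38.9 under NG, 72.3 under HG+NT and 50.3 under HG+miR-93. The 95% intervals of the gamma medians were 12.9 to 55.7, 42.7 to 74.7 and 22.0 to 69.0, and they overlapped. Neighbouring members sometimes lay under 1 broad peak and then shared a value: 4 members shared a peak with another under NG, 8 under HG+NT and 7 under HG+miR-93. Under HG+miR-93, *Pcdhgb6*, *Pcdhga10* and *Pcdhgb7* lay under the same peak, and so did *Pcdhgc4* and *Pcdhgc5*.

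In the alpha cluster, *Pcdha4* (TSS at 36952648) had the highest mean percentile of all 57 genes, 81.5, with 91.0 under NG, 81.9 under HG+NT and 71.5 under HG+miR-93. Its pileups of 5.81 (3.09 to 9.93), 4.41 (2.57 to 7.07) and 3.69 (2.22 to 5.77) lay over an input at background. Its summits lay 2237, 1322 and 1362 nt downstream of the TSS, outside the promoter. *Pcdha9* reached percentile 95.7 under HG+NT, with a fold of 2.87 and 23 fragments, but 38.9 under NG and 51.8 under HG+miR-93. *Pcdha6* followed with percentiles of 66.4, 51.6 and 76.2. The lowest mean percentiles were those of *Pcdha5*, at 16.3, 29.2 and 44.3, and of *Pcdha3*, at 16.3, 31.8 and 32.4. The products of all these alpha genes share 1 cytoplasmic tail and differ in the extracellular domain, which sets their binding specificity.

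In the beta cluster, *Pcdhb1* (TSS at 37264938), the first gene in order, had a mean percentile of 70.0 and the highest single value of the 57 genes. It stood at 55.7 under NG, 58.5 under HG+NT and 95.8 under HG+miR-93, where its pileup was 5.44 (3.62 to 7.86, 28 fragments) and its summit lay 50 nt downstream of the TSS. Under NG and HG+NT its summits lay 923 nt upstream and 983 nt downstream. *Pcdhb11*, with percentiles of 42.7, 89.1 and 55.6, and *Pcdhb22*, with 66.4, 53.9 and 66.9, came next. The summits of *Pcdhb22* lay 1962, 1831 and 2124 nt upstream of its TSS, at 37515909, 37516040 and 37515747. These positions are inside the coding part of the *Pcdhb21* exon (37513820 to 37516141), so the place of *Pcdhb22* reflects fragments over *Pcdhb21*. The peaks of *Pcdhb22* did not reach the promoter of *Pcdhb21*, whose values came from other peaks, so they were not counted as shared. *Pcdhb21* was lowest, with 4.5, 17.5 and 39.7, and *Pcdhb2* stood at 38.9, 22.5 and 14.8.

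In the gamma cluster, *Pcdhga12* had a mean percentile of 80.6, with 74.8 under NG, 77.7 under HG+NT and 89.4 under HG+miR-93. Its summits lay 1287, 2476 and 2372 nt downstream of the TSS, outside the promoter. *Pcdhga3* stood at 91.0, 72.3 and 62.1, and *Pcdhga5* at 42.7, 74.7 and 89.4. The lowest means were those of *Pcdhga10*, at 51.4, 26.6 and 13.1, and of *Pcdhga8*, at 28.2, 42.7 and 9.6. Counting error left each of these places wide: at the ends of its Poisson interval *Pcdhga12* would stand between 14.4 and 99.0 under NG and between 52.7 and 99.2 under HG+miR-93.

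The C-type genes did not share a pattern across the lists. By fold *Pcdhgc3* stood at percentile 12.1, 75.1 and 22.0, *Pcdhgc4* at 1.6, 50.0 and 91.6, and *Pcdhgc5* at 4.9, 9.0 and 91.6. The HG+miR-93 values of *Pcdhgc4* and *Pcdhgc5* came from 1 shared peak whose summit lay 14522 nt and 10088 nt downstream of their TSSs, outside both promoters. *Pcdhac1* stood at 55.7, 77.7 and 51.8. *Pcdhac2* stood at 48.5, 47.4 and 42.4, and its summits lay 3002, 2832 and 2845 nt downstream of its TSS.

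**Figure D2:**
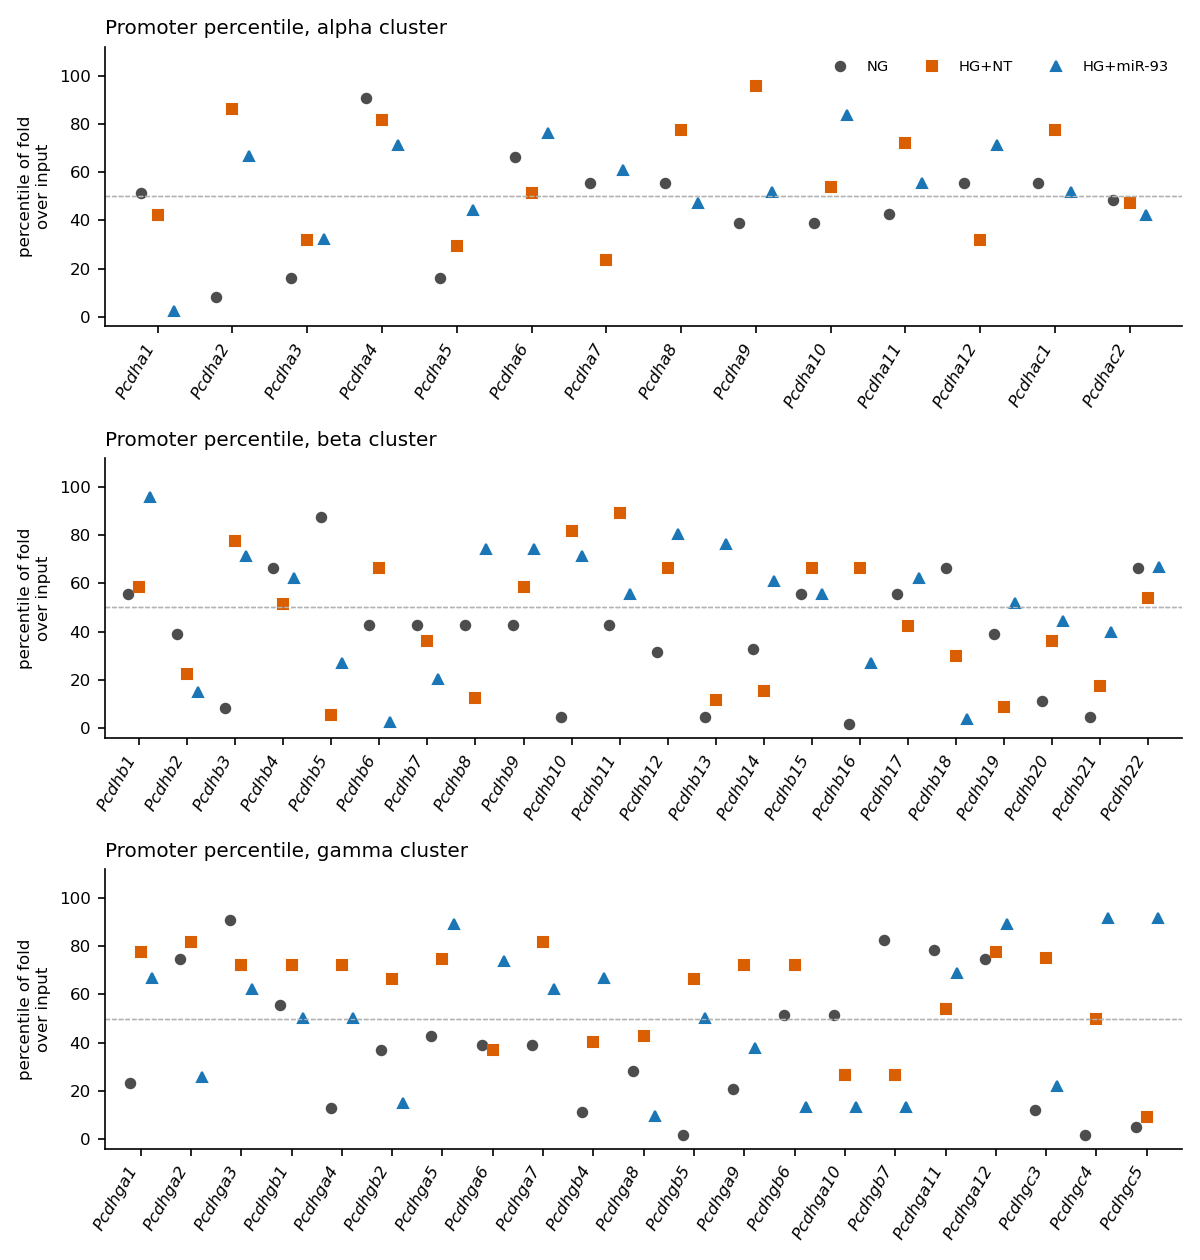
Percentile of each promoter's fold over input among all protein-coding TSSs (0 to 100), by cluster in chromosomal order, with points for NG, HG+NT and HG+miR-93 and a dashed line at 50. Members scatter on both sides of the line and most change place between lists, with *Pcdha4* above 70 in all of them.

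Summits lay near the TSS less often than over all TSSs, except in the gamma cluster under NG (61.9%). The summit of the promoter's highest-fold peak lay within 500 nt of the TSS for 21 members under NG (36.8%), 13 under HG+NT (22.8%) and 18 under HG+miR-93 (31.6%), against 58.1%, 55.8% and 55.5% of all TSSs. In the alpha cluster this held for 0, 2 and 2 of 14 genes, in the beta cluster for 8, 5 and 9 of 22, and in the gamma cluster for 13, 6 and 7 of 21. The summit lay inside the variable exon, or the single exon of a beta gene, for 37, 50 and 44 members. These exons are 2346 to 8695 nt long and no share over all TSSs was computed, so the counts are not read as a trait of these genes. Low GC content went with fewer promoter summits over all TSSs as well: 22.7%, 21.9% and 22.7% of TSSs under 40% had the summit within 500 nt, and 8, 8 and 9 of the 30 members in that class did. Between 40% and 50%, 47.8%, 17.4% and 30.4% of members did, against 39.3%, 36.6% and 37.6% of TSSs.

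Over all peaks, summits were frequent about 2000 nt downstream of the TSS in the high-glucose lists. Between 1500 and 2500 nt downstream of the TSS, a region chosen after its values were seen, 35 of 57 members had a summit under HG+NT (61.4%) and 32 under HG+miR-93 (56.1%), against 31.3% and 31.5% of all TSSs. Under NG the share was 36.8% (21 members), against 40.2% of all TSSs. The highest bin of the profile was 2000 to 2250 nt downstream under HG+miR-93, with 29.8 summits per 100 members against 8.7 per 100 TSSs. Under HG+NT the bin from 2250 to 2500 nt held 21.1 against 8.9. Between 2500 and 3500 nt, 12, 7 and 6 members had a summit in the 3 lists (21.1%, 12.3% and 10.5%), against 42.5%, 32.8% and 33.1% of all TSSs. With peaks of a −log10 p of at least 1 alone, 12, 23 and 20 members had a summit in the region from 1500 to 2500 nt (21.1%, 40.4% and 35.1%), against 11.7%, 6.2% and 6.2% of all TSSs.

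A summit between 1500 and 2500 nt was present in all 3 lists for 13 members (22.8%), where 11.4% of all TSSs had one: *Pcdha5*, *Pcdha8*, *Pcdha9* and *Pcdha11*, *Pcdhb6*, *Pcdhb7*, *Pcdhb13*, *Pcdhb16* and *Pcdhb21*, and *Pcdhga2*, *Pcdhga5*, *Pcdhga8* and *Pcdhga11*. *Pcdha9* kept its position most closely, with summits 2201, 2143 and 2233 nt downstream of its TSS in an exon of 2481 nt. *Pcdhga5* had summits at 2238, 2185 and 1978 nt. For *Pcdhb21*, the summits of the peaks taken for the *Pcdhb22* promoter lay between 1500 and 2500 nt in all 3 lists. In the region from 500 nt upstream to 500 nt downstream, 7 members had a summit in all lists (12.3%), against 44.0% of all TSSs: *Pcdhb18*, *Pcdhb21*, *Pcdhga4*, *Pcdhga6*, *Pcdhga9*, *Pcdhga11* and *Pcdhgc3*. No alpha gene was among them.

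**Figure D3:**
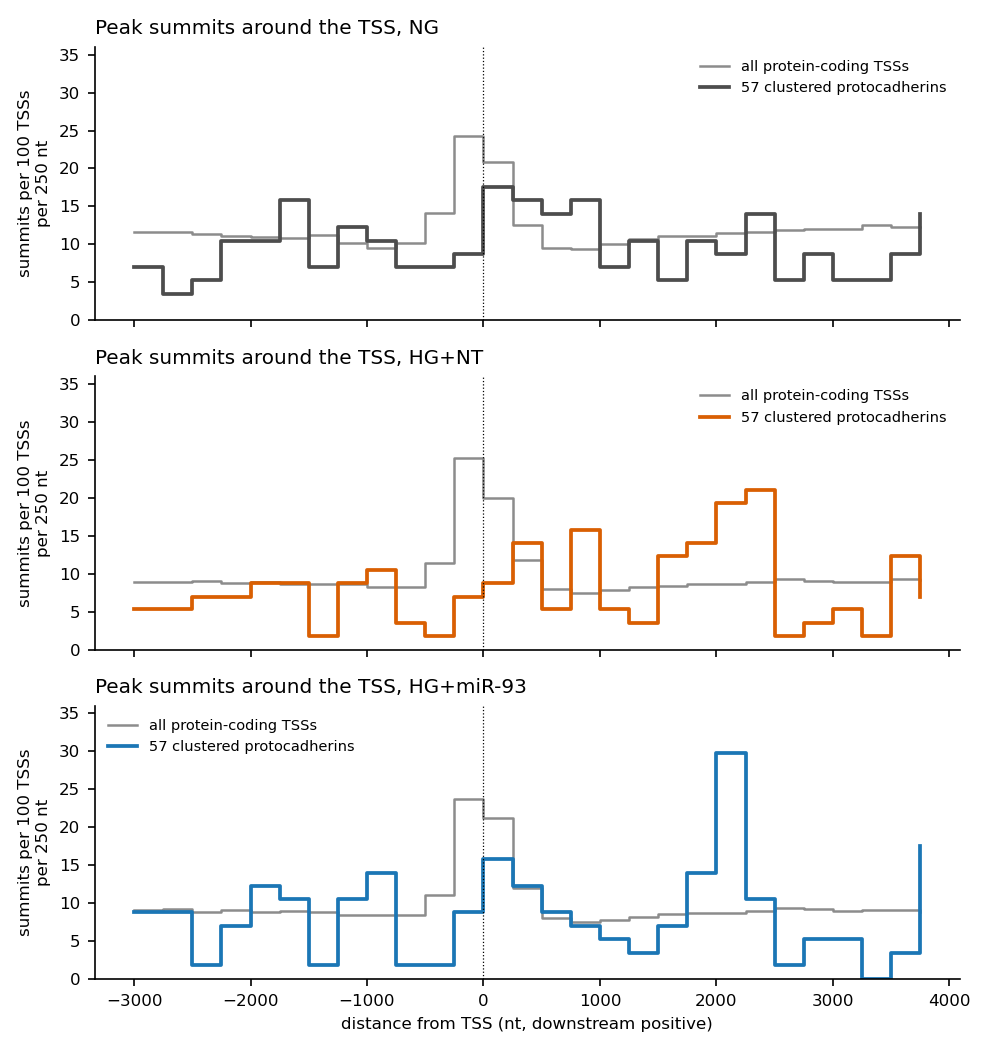
Peak summits per 100 TSSs in 250-nt bins by distance from the TSS (nt, downstream positive), for the 57 clustered protocadherin genes (coloured) and all protein-coding TSSs (grey), with a panel for each list. All TSSs have their highest bins next to the TSS, while the clustered protocadherins have theirs about 2000 nt downstream under HG+NT and HG+miR-93, up to 29.8 summits per 100 genes.

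GC content was mostly higher in the 2500 nt downstream of the TSSs than upstream of them. From 250 to 500 nt downstream of the TSS the median GC content was 60.4% in the alpha cluster, 49.4% in the beta cluster and 58.4% in the gamma cluster, and from 1750 to 2000 nt it was 57.6%, 62.4% and 55.2%. From 2500 to 2750 nt, which still lies within the exon of most beta genes, it was 33.0%, 34.8% and 41.2%. Variable exons up to the end of their coding part made up 16.3% of the alpha cluster, 22.1% of the beta cluster and 34.3% of the gamma cluster by length. They held 23.0%, 24.1% and 26.5% of the alpha cluster's summits in the 3 lists. In the beta cluster they held 33.3%, 44.3% and 36.7%, and in the gamma cluster 43.5%, 50.0% and 39.6%. The 250 bases around summits had a median GC content of 39.6%, 44.6% and 45.0% in the alpha cluster, where tiles of the same length had 38.4%, and over chromosome 18 it was 44.0%, 44.8% and 45.6% at summits against 41.2% in tiles. List depth was lowest under NG and highest under HG+miR-93. The share of summits in exons was highest under HG+miR-93 in the alpha cluster and under HG+NT in the beta and gamma clusters. The part of GC content and list depth in the summit counts was not tested.

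Parts of the alpha exons also have sequence that occurs more than once in the genome, and where the other copies lie was not read. From 250 to 500 nt downstream of the TSS a median of 40.2% of 36-mers, the read length used, occurred once in the genome in the alpha cluster, and from 1500 to 1750 nt 41.4% did. In the beta cluster the lowest bin was 1750 to 2000 nt, at 75.6%, and in the gamma cluster no bin was under 96.0%. Within 500 nt of the TSS, 80.1% of 36-mers occurred once at the median of the alpha promoters, with the lowest value of 72.57% at *Pcdha6*, against a median of 100% over the beta promoters and 99.0% over the gamma promoters. The lowest gamma promoter, *Pcdhgb4*, had 72.98%. From 2000 to 2250 nt, where many summits lay, the medians were 100% in the alpha, 77.8% in the beta and 98.0% in the gamma cluster. Fragments from the repeated stretches cannot be assigned to 1 gene by sequence alone, so pileups there are uncertain.

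**Figure D4:**
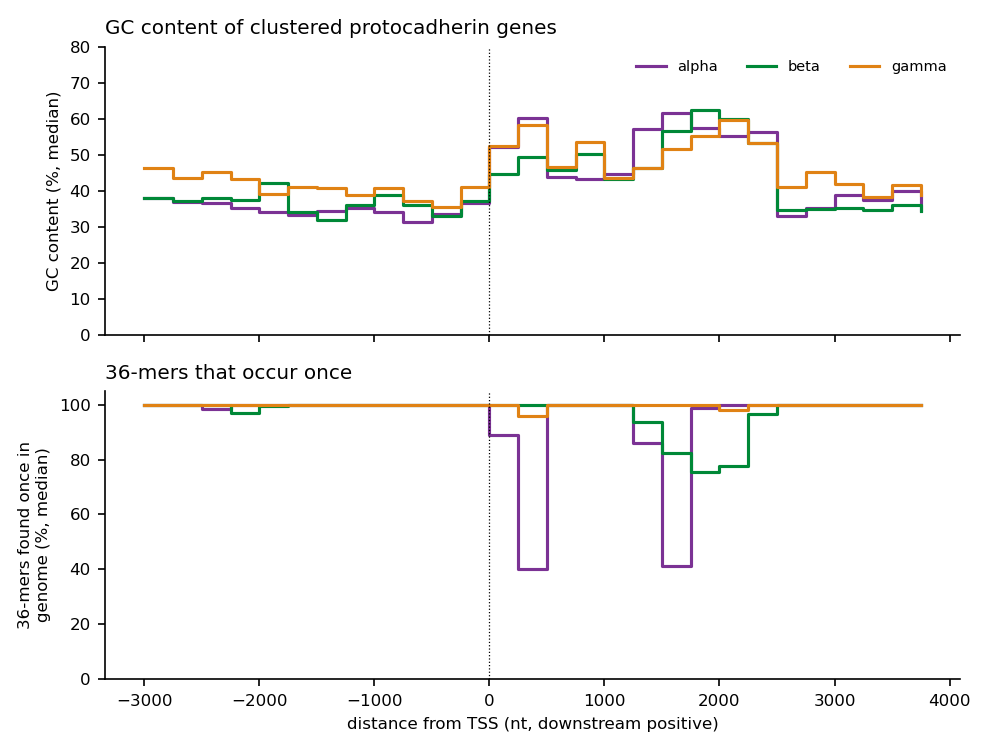
Median GC content (%) and median share of 36-mers that occur once in the genome (%) in 250-nt bins by distance from the TSS (nt, downstream positive), for the alpha, beta and gamma clusters. GC content is mostly higher from the TSS to 2500 nt downstream than upstream, and the alpha cluster has dips in unique 36-mers to 40.2% and 41.4%.

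Between NG and HG+NT the pileups of most members differed by less than their counting error. The comparison asked how chromatin accessibility differed with high glucose. The median log2 ratio of HG+NT to NG pileups was 0.03 over the 57 members (95% interval of the median -0.10 to 0.11), against -0.14 over all TSSs. By cluster it was 0.22 in alpha, -0.06 in beta and -0.02 in gamma. A ratio of at least 1.5 upward was reached by 6 members (10.5%), where 7.15% of all TSSs did, and downward by 2 members (3.51%), where 18.3% did. Poisson intervals were apart for 0 members in the upward direction (background 0.404%) and for 1 member downward (background 1.18%).

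That member was *Pcdhb14* (TSS at 37447656), with a pileup of 6.70 under NG (3.75 to 11.05, 15 fragments), 1.82 under HG+NT (0.73 to 3.75, 7 fragments) and 4.28 under HG+miR-93 (2.68 to 6.47, 22 fragments). NG was highest and HG+NT lowest, and the bounds of the intervals of NG and HG+NT both round to 3.75. The log2 ratio of HG+NT to NG was -1.88, and it was -0.99 when the peak with the highest pileup over the promoter was taken. The input's local mean was 4, 1.43 and 2 in the 3 lists. The summits lay 221 nt downstream, 2323 nt upstream and 784 nt downstream of the TSS, so the values came from different positions. The peak under HG+NT lay within the span of the peak under NG. *Pcdhb5* had the other ratio past the fold downward, with pileups of 5.36, 1.82 and 2.92 and a log2 ratio of -1.56, or -1.05 with the peak of highest pileup, and its summit lay 3816 nt downstream under NG and 760 nt downstream under HG+NT.

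The largest upward ratios were those of *Pcdha2* and *Pcdhb3*. *Pcdha2* had pileups of 1.79 under NG (0.49 to 4.57, 4 fragments), 4.67 under HG+NT (2.77 to 7.39, 18 fragments) and 3.5 under HG+miR-93, with a log2 ratio of HG+NT to NG of 1.39. *Pcdhb3* had pileups of 1.79, 4.15 and 3.69 and a log2 ratio of 1.22. For both genes NG was lowest, and the intervals of NG and HG+NT overlapped.

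By rank, 36 members stood higher under HG+NT than under NG and 21 lower, with a median change of 13.1 percentile points (-1.1 to 22.0). Of all TSSs, 27012 stood higher and 27247 lower, with a median change of -0.1. In the gamma cluster 16 stood higher and 5 lower, with a median change of 20.9 points (2.8 to 48.3), while the median log2 pileup ratio of the cluster was -0.02. These intervals are spreads over genes, some of which shared a peak. They hold no error between replicates and do not test a change between lists. The share of gamma promoters whose input mean was at background was 33.3% under NG and 52.4% under HG+NT. From NG to HG+NT the median input mean at the gamma summits fell from 2.0 to 1.43. The median fold, which has the input mean in its denominator, rose from 1.67 to 2.02, while the median pileup went from 4.02 to 3.90. The part of the input mean in the change of rank was not tested.

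Between HG+NT and HG+miR-93, which asked how the miR-93 mimic altered accessibility under high glucose, the median log2 pileup ratio was -0.06 (-0.25 to 0.07) over the members and -0.07 over all TSSs. It was -0.21 in alpha, 0.08 in beta and -0.06 in gamma. An upward ratio of at least 1.5 was reached by 5 members (8.77%, background 3.30%) and a downward ratio by 8 members (14.0%, background 7.74%). Poisson intervals were apart for 0 members upward (background 0.238%) and 0 downward (background 0.919%). By rank 26 members stood higher and 31 lower, with a median change of -7.7 points (-15.7 to 14.1). Of all TSSs, 27250 stood higher and 27008 lower, with a median change of 0.1.

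*Pcdhb14* had a log2 ratio of 1.23, the largest upward ratio here with the peak of highest fold, but 0.34 with the peak of highest pileup. *Pcdhb8* had 0.80 with either peak, from pileups of 3.13 under NG, 2.34 under HG+NT and 4.08 under HG+miR-93. Its HG+miR-93 value came from a peak 53263 bp wide, shared with *Pcdhb9*, whose summit lay 47841 nt downstream of the TSS of *Pcdhb8*. Downward, *Pcdhb18* had pileups of 4.02, 2.86 and 1.36 and a log2 ratio of HG+miR-93 to HG+NT of -1.07, with summits 331 and 314 nt downstream in these lists, but a ratio of -0.18 with the peak of highest pileup. *Pcdhga2* had pileups of 4.47, 4.41 and 2.14 and a ratio of -1.05, but -0.11 with the peak of highest pileup. Its summits for the ratio of -1.05 lay 293 nt downstream under HG+NT and 787 nt upstream under HG+miR-93.

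From NG to HG+miR-93 the median log2 ratio was -0.01 over the members and -0.23 over all TSSs. Upward ratios of at least 1.5 were reached by 4 members (7.02%, background 6.08%) and downward ratios by 8 (14.0%, background 23.5%), and intervals were apart for 0 members upward (background 0.212%) and 0 downward (background 2.04%). With pileups divided by the median promoter pileup of their list, the same comparison had 8 members higher and 5 lower. The share over all TSSs with that scaling is not given. The 3 comparisons share lists pairwise and are not independent of each other.

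**Figure D5:**
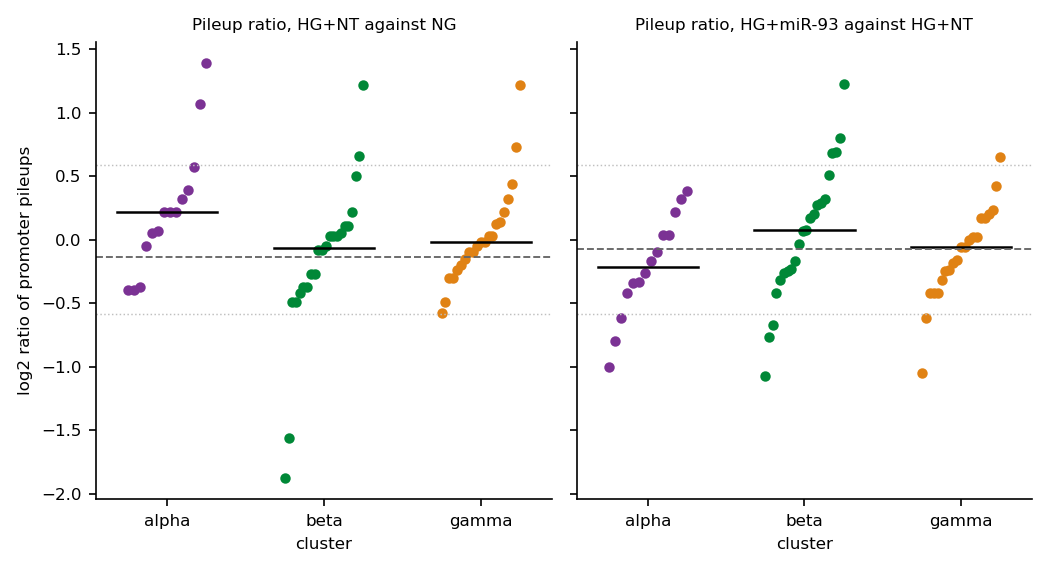
Log2 ratios of promoter pileups for HG+NT against NG and HG+miR-93 against HG+NT, with a point for each gene ordered by value within its cluster, solid bars at cluster medians, a dashed line at the median over all protein-coding TSSs and dotted lines at a ratio of 1.5 either way. Most points lie between the dotted lines, and *Pcdhb14* is the lowest point of the first comparison (-1.88) and the highest of the second (1.23).

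The promoter peaks of 52 members overlapped by at least 1 bp in all 3 lists (91.2%), where 90.4% of all TSSs did. Their summits were less often in place: in 2 members, *Pcdha9* and *Pcdhga6*, all 3 summits lay within 150 bp of each other (3.5%), where 14.6% of all TSSs had such summits.

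Genes around and beyond the clusters were ranked by gene, with the highest fold over all TSSs of a gene. On that scale the 57 genes had median percentiles of 37.7 under NG, 48.4 under HG+NT and 49.8 under HG+miR-93. The 5 genes beside the clusters had 53.7, 40.6 and 38.3. Among them *Taf7*, a subunit of the general transcription factor TFIID encoded between the beta and gamma clusters, stood at 53.7, 63.0 and 57.4, and the peak over its promoter had pileups of 8.49, 8.57 and 5.05, among the 5 highest from the first to the last gene of the clusters in each list. The 12 non-clustered protocadherins, adhesion genes outside the clusters with promoters of the usual kind, had 59.7, 54.1 and 68.5.

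The 17 regulators, among them CTCF, cohesin and DNA methyltransferase genes, had medians of 67.4, 73.5 and 54.9, with 13, 12 and 11 genes above 50. The 14 partners and processing genes, which include the kinases *Ptk2* and *Fyn*, the WAVE complex and the proteases that cleave protocadherins, had 88.6, 82.3 and 66.1, with 12, 10 and 8 above 50. Accessibility of a promoter in these lists says nothing about the amount of its product.

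The labelled cell type was checked against 8 podocyte markers, whose medians were 66.2, 79.6 and 67.8, with 4, 6 and 5 genes above 50. *Actn4*, an actin crosslinker, stood at 87.7, 93.3 and 90.8, and *Synpo*, an actin-associated protein of foot processes, at 91.1, 96.3 and 71.4. *Nphs1*, which encodes nephrin of the slit diaphragm, stood at 10, 55.0 and 64.1. The 6 neuron markers had medians of 29.1, 62.7 and 74.0. These medians rose in the order NG, HG+NT and HG+miR-93, as did those of the clustered protocadherins by fold. Among single markers *Rbfox3* and *Tubb3* rose in that order, but *Map2*, *Snap25*, *Nefl* and *Syp* did not. Any relation to the protocadherin medians was not tested.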

How the data were processed

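Libraries were made from gel-purified DNA of nuclei digested with 30 U DNaseI (1 U for the genomic DNA input) and sequenced in 36 cycles. Base calls came from CASAVA 1.8.2 per the labels. The authors trimmed with TrimGalore!, used Bowtie for alignment (mm10), filtered duplicates and ran MACS2 with the input as control on the 2 pooled replicates of each condition. The MACS2 settings are not given in the sources used here. The deposited lists hold a score, a fold (ratio) over the input, a −log10 p-value, a −log10 q-value (kept as a score) and a summit offset for each peak. No column of any other sample was left unused (0), and depth in reads is not given, so depth is stated relative to the input.

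From the fold and −log10 p of a peak, its number of fragments and the local mean of the input were worked out on the grid that MACS2 allows. Solutions were found for 100.0% of peaks and were the only one for 97.66% (NG), 98.05% (HG+NT) and 92.39% (HG+miR-93). On simulated data the solver was tested with 20000 peaks per list. Promoters took the overlapping peak with the highest fold. Percentiles are over TSSs with a peak in all lists. Exact Poisson intervals, at the 95% level, cover counting error only, and pooling left no replicates for a test. Intervals of medians are order-statistic intervals over genes. The gene at TSS 37005203, which GENCODE gives the symbol of another gene, was named *Pcdha10* after RefSeq. GC content, motif letters and 36-mers were read from GRCm38 (mm10), with every 10th TSS standing for all TSSs in the 36-mer count. Named genes were the 3 highest and 2 lowest mean percentiles of each cluster, the C-type genes, the 2 largest ratios each way for HG+NT against NG and for HG+miR-93 against HG+NT, and members with intervals apart; members singled out for pileup or summit position were chosen after their values were seen. Values of 2 of the podocyte markers are not reported here. Members, lists and tests were chosen with earlier results of these data known. Alternatives changed the window, the peak chosen, the ranking value, the scaling, the fold and the overlap. Analyses used Python 3.11.15, NumPy 2.4.6, pandas 2.3.3 and SciPy 1.17.1.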

Additional observations from a re-analysis of the deposited data

How the results depend on the processing

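No named member with a pileup ratio past 1.5 changed direction under an alternative, while medians and single ratios near 0 changed sign in places. Ranked by pileup with the peak of highest pileup, the median percentile of the members was 24.8 under NG, 31.9 under HG+NT and 26.8 under HG+miR-93. With peaks of a −log10 p of at least 1 in all lists it was 24.7, 29.9 and 34.3 over the 15 members left, 13 of which overlapped in all lists. With the summit inside the window it was 20.6 under NG and 43.9 under HG+miR-93 over 7 members. Summed folds gave 36.8 under NG, and chromosome 18 alone gave 34.4 under NG. At a ratio of 2, HG+miR-93 against HG+NT had 1 member higher and 3 lower, and HG+miR-93 against NG had 2 and 3. With the summit inside the window, HG+NT against NG had 1 higher and 0 lower of 9 members and a median log2 ratio of -0.24, HG+miR-93 against HG+NT had 1 and 2 of 10, and HG+miR-93 against NG had 1 and 3 of 12. The peak of highest pileup left 3 members higher with miR-93 mimic than with the other mimic. Pileups over the median promoter pileup of their list gave a median of 0.22 for HG+NT against NG and 0.19 for HG+miR-93 against NG, with 8 higher and 5 lower. For these counts of higher and lower members no share over all TSSs is given, so they cannot be set against a background. Promoter peaks were shared in all lists by 26 members at a reciprocal overlap of 50% (45.6%, against 43.3% of all TSSs). With summits within 150 bp they were shared by 2 members (3.5%, against 14.6%). Alternatives added after seeing the data left 12, 23 and 20 members with a summit 1500 to 2500 nt downstream at a −log10 p of at least 1, and 23, 38 and 34 for 1300 to 2700 nt (40.4%, 66.7% and 59.6%, against 50.9%, 40.7% and 41.1% of all TSSs). Of 885 values of single members and clusters, 853 stayed within their intervals and 32 did not. The 853 include 54 log2 ratios under the cutoff of 2, which moved the cutoff alone and could not change them. The total therefore overstates how far the values were put to a test. The cause of these shifts was not tested. The summit and −log10 p settings also left fewer members and took other peaks. No paired analysis was possible because the lists pool the replicates, and leaving out a replicate could not be done for the same reason. Fragment numbers of 4 to 33 per promoter limit the precision.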
